A study of Mus musculus with 12 samples.

Results

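Molecular chaperones of the cytosol and the mitochondria are described here in 2 mouse cell lines after transfer of conditioned medium. The genes were taken by symbol, as those in the raw count tables of both lines that belong to the small heat shock protein (Hspb), Hsp70 and Hsp110 (Hspa, Hsph), Hsp90 (Hsp90a), Hsp60 and Hsp10 (Hspd, Hspe), chaperonin (Cct) or J-domain protein (Dnaja, Dnajb, Dnajc) families. Hspa5 and Dnajb9, genes of the endoplasmic reticulum stress response, were left out by name. The rule gave 68 members of the 14360 genes found in both tables. They were 5 small heat shock proteins, 13 Hsp70 and Hsp110 genes, 2 Hsp90 genes, 2 Hsp60 and Hsp10 genes, 8 Cct genes, 4 Dnaja, 9 Dnajb and 25 Dnajc genes. The rule went by family name, so 9 members whose proteins work in the endoplasmic reticulum were among them, beside 35 of the cytosol, 8 of the mitochondria and 16 that were not assigned to a compartment.

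PSC4 is a mouse line of stellate cells, which belong to the stroma of the pancreas, and KPC4 is a mouse pancreatic adenocarcinoma line. In the first experiment KPC4 cells received vehicle or 10 µM gemcitabine, a nucleoside analogue used in chemotherapy, for 6 h, were washed, and conditioned starvation medium for 14 h. PSC4 cells were then kept for 24 h in that medium, named Control-SU or Gem-SU. In the second experiment PSC4 cells spent 6 h in either medium and, after a wash, 18 h in new starvation medium. The media they conditioned were named Control-PSC-SU and Gem-PSC-SU, and KPC4 cells stayed in them for 24 h. Each of the 4 groups had 3 libraries, labelled as biological replicates. All groups thus received conditioned starvation medium, no culture given gemcitabine directly was analysed here, and each cell type is represented by 1 line. Since each line had its own medium, line and medium cannot be told apart. The labels do not say how replicate cultures were separated, so p-values measure the spread between these libraries.

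Chaperones bind unfolded or partly folded proteins and prevent them from aggregating. Hsp70 proteins do so in cycles of ATP hydrolysis, which J-domain proteins start and nucleotide exchange factors such as Hsp110 end, and pass some clients to Hsp90 or to the ring-shaped chaperonins, CCT in the cytosol and Hsp60 with its lid Hsp10 in mitochondria. Many of these genes, though not all, are induced by heat shock factor 1, which binds repeats of the unit nGAAn called heat shock elements. Stellate cells secrete large amounts of matrix protein, and tumour cells often hold chaperones at high levels.

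Depth was similar in all libraries, with 29559414 to 38138356 gene counts each for PSC4 and 26354328 to 34744150 for KPC4, so that counting error was small for all but the lowest members. Of the 68 members, 65 passed the filter on low counts in PSC4 and 63 in KPC4. Hspb9, Cct6b and Dnajb7 passed in neither line, with at most 11 counts in any library, and Hspb7 and Hspa12a did not pass in KPC4, where both had at most 9 counts. Levels are given as CPM, the counts of a gene relative to the TMM-adjusted library total, with the values of replicates 1, 2 and 3 in that order. Changes are log2 fold changes with their standard error (SE) from edgeR's quasi-likelihood test, and a member was called where the Benjamini-Hochberg adjusted p, taken over all genes tested, was under 0.05. The lines were checked against marker genes. In PSC4, 9 of 10 stellate cell or fibroblast markers had more than 3 counts, and Lum was not analysed here. The summed level of the list was 8129 to 8697 CPM with Control-SU and 2453 to 3665 CPM with Gem-SU, where 8 of the 10 were called lower. Acta2 was not called, with a log2 fold change of 0.78 (edgeR adjusted p 0.054). The part of the marker shift in the chaperone results was not tested. The 6 markers of this list with a row in KPC4 summed to 2417 to 2805 CPM with Control-PSC-SU, of which Vim was 2391 to 2772 CPM. Of 8 epithelial markers, the 5 with a row in PSC4 summed to 3.54 to 6.06 CPM there with Control-SU and to 10.2 to 14.8 CPM with Gem-SU. All 8 summed to 5961 to 7422 CPM in KPC4. Epcam, Cdh1 and Cldn4 were not analysed in PSC4, nor were Pdgfrb, Thy1 and Dcn in KPC4, because they had no row there, and no level is given for them.

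In PSC4, 32 of the 65 members tested were called, 19 higher and 13 lower with Gem-SU, which is 49.2% of those tested. Over all 13347 genes tested, 46.3% were called, 24.3% higher and 22% lower, so the share of members called was near that background. The median log2 fold change was 0.01 over the members and 0.00 over all genes. The direction differed by class. J-domain genes of the A and B types were called higher only, 5 of the 12 tested, while Dnajc genes were called in both directions, 6 higher and 7 lower of 25. Of 13 Hsp70 and Hsp110 genes, 3 were called higher and 3 lower, and of 4 small heat shock protein genes 1 was called higher and 3 lower. The Hsp90, Hsp60 and Cct classes had only higher calls, 1 of 2, 1 of 2 and 2 of 7. By compartment, 13 cytosolic members were called higher and 4 lower of 33, 3 mitochondrial members higher and 2 lower of 8, and of 9 endoplasmic reticulum members 1 was called, lower. These counts describe the classes, and no class was tested against another. The library values of 25 members were all higher and those of 19 all lower with Gem-SU than with Control-SU, and such separation was found for 56.4% of all genes tested, 29.3% higher and 27.1% lower.

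**Figure D1:**
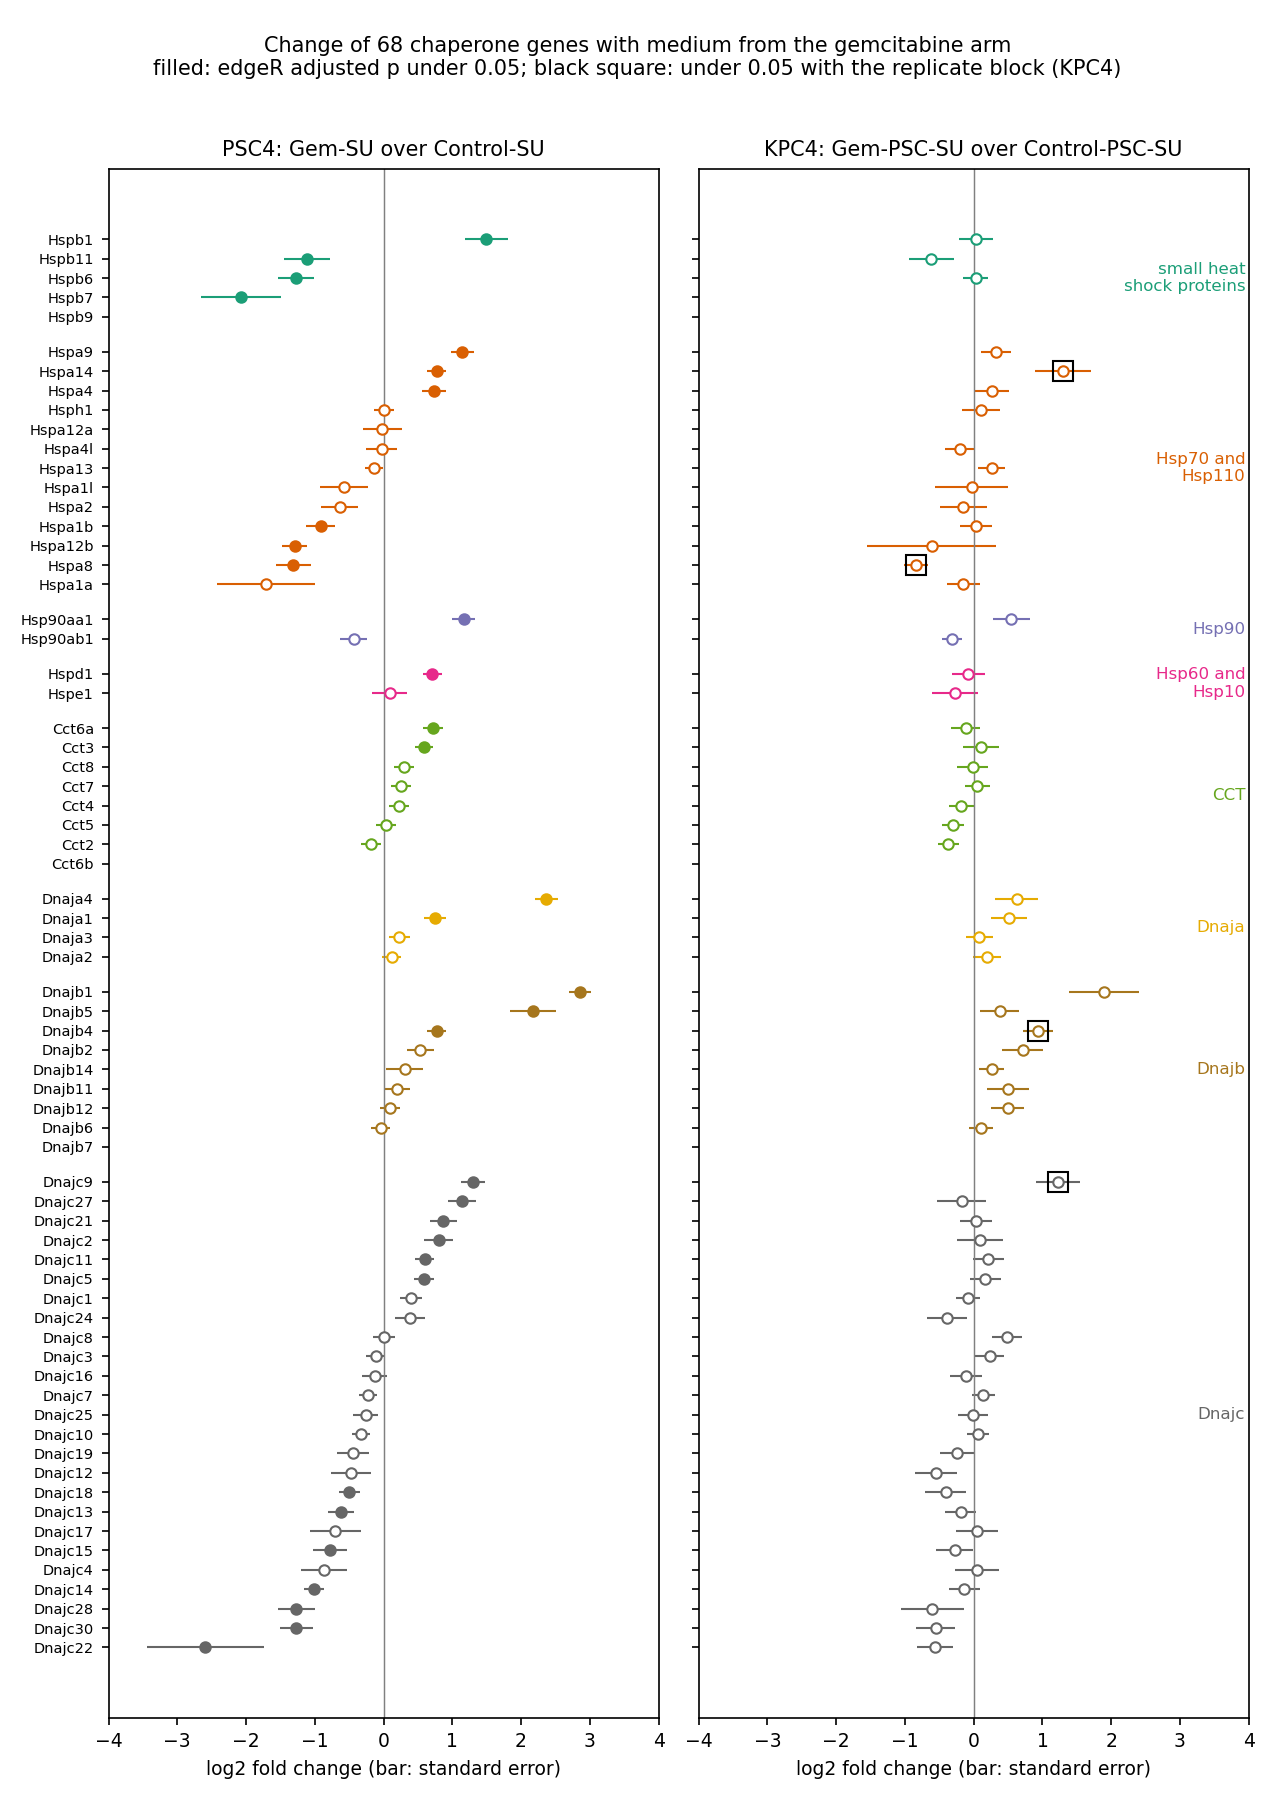
Log2 fold change with its standard error for each member, by class, in PSC4 (left, Gem-SU over Control-SU) and KPC4 (right, Gem-PSC-SU over Control-PSC-SU); filled circles mark an adjusted p under 0.05 and black squares the 4 members under 0.05 in KPC4 with the replicate number as a block. Members without a point did not pass the filter on low counts. Of the 65 members tested in PSC4, 32 are filled, and the same members lie closer to 0 in KPC4 for the most part, where none is filled.

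In KPC4 the same fit, which does not use the replicate number, called 0 of 63 members and 0% of 13236 genes. An unadjusted p under 0.05 was found for 7 members, 5 higher and 2 lower, and for 17% of all genes. Same-numbered KPC4 libraries deviated together from their group means, and a fit blocked on the replicate number called 4 members, 3 higher (Hspa14, Dnajb4, Dnajc9) and 1 lower (Hspa8), beside 8.85% of all genes (6.07% higher and 2.78% lower). DESeq2 called these 4 and Dnajb1, 5 members in all (4 higher and 1 lower), beside 5.37% of all 15309 genes with counts (4.61% higher and 0.758% lower). That share is taken without the low-count filter of edgeR, so it is not on the same base as the edgeR shares. Leaving out Gem-PSC-SU replicate 1 changed this count, and edgeR then called 6 members, the 4 named and Dnajb1 and Dnajb2, beside 8.3% of all genes (6.31% higher and 1.99% lower). The authors' deposited table, which lists 67 of the 68 members, has 4 members under an adjusted p of 0.05 in KPC4 (Dnajb1, Dnajb4, Dnajc9 and Hspa14, all higher) and 36 in PSC4 (22 higher and 14 lower). Of the 32 members called here in PSC4, 28 pass in the authors' deposited table with the same sign, Hspb11 has no adjusted p from it here, and 3 are not under its threshold. These 3 are Hspa4 (0.52, adjusted p 0.191 in the authors' deposited table), Dnajc22 (-2.11, adjusted p 0.0503) and Dnajc18, which has the other sign there (0.10, adjusted p 0.749). Some members pass in PSC4 in the authors' deposited table but were not called here. They are Cct8, Dnajb2, Dnajc1 and Dnajc24, higher there, and Hsp90ab1, Hspa1a, Dnajc4 and Dnajc10, lower there. The library values of 3 members were all higher and those of 6 all lower with Gem-PSC-SU, against 11.8% and 11% of all genes tested, 22.8% in all.

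Promoter stretches of 4 members called in PSC4 are shown, since these genes are known to respond to heat shock. RefSeq promoter windows on GRCm38.p6, from 250 bases before to 50 bases after each annotated start, were found for 55 of the 68 members. Each was searched for GAANNTTC and for TTCNNGAA, which are heat shock units facing each other in either order and read the same on both strands. The printed stretches end before the first annotated exon base, run 5′ to 3′ on the gene's strand, and show the matched letters in capitals. They lie at chr8:83607972-83608174 (plus strand), chr9:54699414-54699513 (plus strand), chr5:135887669-135887918 (plus strand) and chr17:34959239-34959488 (minus strand).
Dnajb1: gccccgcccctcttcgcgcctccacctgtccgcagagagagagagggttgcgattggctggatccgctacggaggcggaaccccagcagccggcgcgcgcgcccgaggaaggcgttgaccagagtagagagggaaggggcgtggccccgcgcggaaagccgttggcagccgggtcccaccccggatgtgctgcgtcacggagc
Dnaja4: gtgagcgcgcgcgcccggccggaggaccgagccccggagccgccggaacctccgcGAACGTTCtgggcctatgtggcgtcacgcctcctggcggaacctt
Hspb1: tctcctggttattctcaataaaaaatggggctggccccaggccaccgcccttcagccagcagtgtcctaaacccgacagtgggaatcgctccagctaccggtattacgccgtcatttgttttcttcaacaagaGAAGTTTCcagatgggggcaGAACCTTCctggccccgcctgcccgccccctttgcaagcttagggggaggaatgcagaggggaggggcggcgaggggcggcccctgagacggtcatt
Hspa1b: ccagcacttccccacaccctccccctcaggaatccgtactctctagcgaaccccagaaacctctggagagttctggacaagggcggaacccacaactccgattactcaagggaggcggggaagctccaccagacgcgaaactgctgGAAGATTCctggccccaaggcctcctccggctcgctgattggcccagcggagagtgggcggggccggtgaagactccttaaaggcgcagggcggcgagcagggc
The Dnajb1 stretch of 203 bases held 0 matches, the Dnaja4 stretch of 100 bases 1 whole match, the Hspb1 stretch of 250 bases 2 and the Hspa1b stretch of 250 bases 1. A second Dnaja4 match, GAACCTTC at position -52 from the start, runs 1 base past the end of the printed stretch. Over whole windows, 18 of 73 member windows (24.7%) held at least 1 match, against 15.1% of all 32851 windows. By gene this was 16 of 55 members (29.1%) and 17.0% of 27025 genes. The longer forms of 3 units in a row, GAANNTTC followed by NNGAA or TTCNNGAA followed by NNTTC, were found in 6 member windows (8.22%) and in 0.603% of all windows. The 4 genes with these windows were Hspd1, Hspe1, Dnajb6 and Hsph1, which is 7.27% of the 55 members, against 0.662% of all genes. Dnajb6 and Hsph1 each had overlapping windows with the same element, and Hspd1 and Hspe1 share theirs. A match describes letters in this window and is neither a binding site nor a cause.

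Among the J-domain proteins, Dnajb1 had the largest change of all members in PSC4. It encodes the main inducible partner of cytosolic Hsp70. Its level was 79.9, 68.2 and 72.2 CPM with Control-SU and 594, 493 and 508 CPM with Gem-SU. The groups did not overlap, and the lowest Gem-SU library was far above the highest control. The log2 fold change was 2.86 (SE 0.16), or 7.24-fold, with an adjusted p of 2.1e-05. In KPC4 the same gene measured 46.8, 63.6 and 51.8 CPM with Control-PSC-SU and 62.2, 351 and 191 CPM with Gem-PSC-SU. Replicate 1 of the Gem-PSC-SU group lay among the controls and the other 2 libraries above them. The log2 fold change there was 1.90 (SE 0.51), with an adjusted p of 0.151 in edgeR and 0.0024 in DESeq2. Blocking on the replicate number gave 1.60 (adjusted p 0.085). Without Gem-PSC-SU replicate 1 the change was 2.32 (edgeR adjusted p 0.0040) and without Gem-PSC-SU replicate 2 it was 1.23 (edgeR adjusted p 0.405). Over all fits that left out 1 library, the adjusted p reached 0.526.

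Dnaja4 encodes a cytosolic J-domain protein of the A type. In PSC4 it stood at 7.10, 6.59 and 7.63 CPM with Control-SU and at 39.4, 36.3 and 34.6 CPM with Gem-SU. All 3 Gem-SU libraries were above all controls, by a log2 fold change of 2.37 (SE 0.17, adjusted p 5.2e-05), or 5.17-fold. In KPC4 it stood at 2.77, 4.74 and 4.49 CPM with Control-PSC-SU and at 5.30, 7.62 and 5.57 CPM with Gem-PSC-SU. The KPC4 groups did not overlap either, but the difference of 0.63 (SE 0.31) missed the threshold with an adjusted p of 0.352.

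Dnajb5, a cytosolic J-domain gene of the B type, measured 5.65, 2.37 and 4.45 CPM with Control-SU and 22.3, 19.9 and 14.2 CPM with Gem-SU. The PSC4 groups did not overlap, and the log2 fold change was 2.18 (SE 0.34, adjusted p 0.0012). In KPC4 its values were 9.77, 8.24 and 6.997 CPM against 7.26, 12.7 and 12.5 CPM, which overlapped, with a log2 fold change of 0.38 (SE 0.28, adjusted p 0.517).

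Dnajb4, another partner of cytosolic Hsp70, had groups that were apart in both lines. It rose in PSC4 from 33.4, 35.7 and 34.4 CPM to 55.9, 61.7 and 59.0 CPM, a log2 fold change of 0.77 (SE 0.13, adjusted p 0.0020). In KPC4 it measured 41.1, 41.2 and 51.3 CPM with Control-PSC-SU and 66.4, 106 and 83.2 CPM with Gem-PSC-SU. Every Gem-PSC-SU library was above every control, with a log2 fold change of 0.94 (SE 0.22) and an adjusted p of 0.124, or 0.022 with the block. Dnaja1, the most common A-type partner of Hsp70 in the cytosol, rose in PSC4 from 214 ± 31.5 to 358 ± 24.3 CPM (mean ± SD, n = 3), a log2 fold change of 0.75 with an adjusted p of 0.0060 in edgeR. Its change in KPC4 was 0.51 (adjusted p 0.351). Dnajb2, known from neurons, had a log2 fold change of 0.54 in PSC4 (adjusted p 0.056) and of 0.71 in KPC4 (adjusted p 0.273), and in KPC4 its adjusted p was 0.023 without Gem-PSC-SU replicate 1. Dnajb6, Dnajb11, Dnajb12, Dnajb14, Dnaja2 and Dnaja3 were called in neither line, with log2 fold changes in PSC4 between -0.04 (Dnajb6) and 0.31 (Dnajb14).

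Dnajc proteins share only the J domain, and most of them serve 1 process each. Dnajc9, a nuclear J-domain protein that is also a histone chaperone, had the largest increase of the class in both lines. In PSC4 it measured 77.3, 66.0 and 56.3 CPM with Control-SU and 184, 169 and 137 CPM with Gem-SU. The groups did not overlap, and the log2 fold change was 1.30 (SE 0.18, adjusted p 6.7e-04). In KPC4 it measured 18.8, 36.4 and 23.6 CPM with Control-PSC-SU and 38.3, 71.5 and 74.4 CPM with Gem-PSC-SU. The lowest Gem-PSC-SU library was just above the highest control, and each Gem-PSC-SU library was above the control of the same number. The log2 fold change was 1.22 (SE 0.33) with an adjusted p of 0.149, or 0.0090 with the block. Dnajc27, a small GTPase with a J domain, rose in PSC4 from 17.2 ± 3.59 to 38.1 ± 4.89 CPM (mean ± SD, n = 3), a log2 fold change of 1.14 (edgeR adjusted p 0.0024), while its KPC4 change was -0.18 (edgeR adjusted p 0.823).

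The other Dnajc members called higher in PSC4 were Dnajc21, Dnajc2, Dnajc11 and Dnajc5, with log2 fold changes of 0.87, 0.80, 0.60 and 0.59. Dnajc2 is the ribosome-bound partner of Hspa14, and Dnajc21 acts in ribosome maturation. The call of Dnajc2 was lost without Control-SU replicate 3 (adjusted p 0.074), and that of Dnajc5 without Control-SU replicate 3 or Gem-SU replicate 2 (adjusted p up to 0.055). Of the 7 called lower, Dnajc14, a membrane protein of the endoplasmic reticulum, fell from 135, 114 and 129 CPM to 70.2, 59.0 and 57.7 CPM, a log2 fold change of -1.02 (SE 0.14, adjusted p 8.1e-04). The mitochondrial member Dnajc30 fell from 10.3, 10.7 and 8.80 CPM to 5.17, 3.39 and 3.79 CPM, a log2 fold change of -1.27 (SE 0.24, adjusted p 0.0032). Neither gene's groups overlapped. Dnajc28 fell to the same extent (-1.27, adjusted p 0.0051), and both Dnajc28 and Dnajc30 had lower KPC4 values that missed the threshold, -0.60 (adjusted p 0.522) and -0.55 (adjusted p 0.358). The calls of the other 4 lower members, Dnajc13, Dnajc15, Dnajc18 and Dnajc22, were each lost without at least 2 of the 6 PSC4 libraries in turn, Control-SU replicate 3 or Gem-SU replicate 2 among them, with adjusted p up to 0.119 for Dnajc22. Dnajc22 was at most 2.08 CPM in PSC4 and 72.0 CPM on average in control KPC4 cells, where its change of -0.56 had an adjusted p of 0.320. The other 12 Dnajc members were not called in PSC4, with log2 fold changes between -0.86 (Dnajc4, adjusted p 0.066) and 0.40 (Dnajc1, adjusted p 0.079).

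The Hsp70 class went in both directions in PSC4. Hspa8, the constitutive Hsp70 of the cytosol and the member with the highest level per kilobase there, fell from 3131, 5011 and 3801 CPM with Control-SU to 2018, 1352 and 1445 CPM with Gem-SU. The groups did not overlap, although the controls differed widely among themselves. The log2 fold change was -1.31 (SE 0.26, adjusted p 0.0038), which is 2.48-fold lower. In KPC4 Hspa8 measured 3279, 2756 and 2988 CPM with Control-PSC-SU and 1977, 1409 and 1655 CPM with Gem-PSC-SU. All 3 Gem-PSC-SU libraries lay below all controls there too, with a log2 fold change of -0.84 (SE 0.18). Its adjusted p, the smallest of any member in KPC4, was 0.115, against 0.0066 with the block and 0.0041 in DESeq2. The authors' deposited table gives this gene an adjusted p of 0.112 in KPC4. Of the 31-base words of Hspa8, 43.5% recur in other genes, above all Gm15459, which had at most 20 counts in PSC4 and 19 in KPC4.

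Hspa1a and Hspa1b, neighbouring copies of the stress-inducible Hsp70, share most of their sequence (67.6% of the 31-base words of Hspa1b occur in Hspa1a), so reads could be split between them in a way that depends on the counting. Hspa1b fell in PSC4 from 101, 70.2 and 92.2 CPM to 60.3, 40.01 and 39.2 CPM, without overlap, a log2 fold change of -0.92 (SE 0.22, adjusted p 0.0087). In KPC4 its groups overlapped, at 46.2, 71.8 and 58.0 CPM against 72.8, 58.8 and 48.6 CPM (log2 fold change 0.03, adjusted p 0.953). Hspa1a stood in PSC4 at 3.77, 2.37 and 4.58 CPM against 1.07, 0.150 and 2.07 CPM. Its log2 fold change of -1.71 (SE 0.71) had an adjusted p of 0.078 in edgeR, 0.032 in DESeq2 and 0.046 in the authors' deposited table. In KPC4 the change of Hspa1a was -0.15 (adjusted p 0.765). The mean levels of both inducible copies were thus lower with Gem-SU, in the same libraries in which Dnajb1 was higher.

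Hspa9, the Hsp70 of mitochondria, rose in PSC4 from 326, 358 and 358 CPM to 663, 769 and 876 CPM, a log2 fold change of 1.15 (SE 0.17, adjusted p 9.6e-04), with no overlap. In KPC4 its values were 538, 684 and 537 CPM against 542, 942 and 716 CPM, which overlapped (0.32, SE 0.22, adjusted p 0.481). Hspa14, the Hsp70 of the ribosome-associated complex, was called in PSC4 and, with the replicate block, in KPC4. It rose in PSC4 from 59.6, 52.9 and 52.3 CPM to 102, 93.6 and 85.7 CPM (0.77, SE 0.14, adjusted p 0.0023), without overlap. In KPC4 it measured 26.8, 55.4 and 37.1 CPM with Control-PSC-SU and 46.7, 139 and 108 CPM with Gem-PSC-SU. These groups overlapped, but each Gem-PSC-SU library was above the control of its own number, and the log2 fold change of 1.30 (SE 0.40) had an adjusted p of 0.178, or 0.0075 with the block. Hspa4, an Hsp110 that releases nucleotide from Hsp70, rose in PSC4 from 285 ± 31.5 to 474 ± 63.6 CPM (mean ± SD, n = 3; 0.73, edgeR adjusted p 0.0079), whereas Hsph1, the heat-inducible Hsp110, stood at 214 ± 22.0 and 215 ± 17.4 CPM (mean ± SD, n = 3; 0.01, SE 0.15). Hspa12b, a divergent Hsp70 known from endothelium, fell in PSC4 from 27.5, 23.9 and 29.7 CPM to 12.2, 11.3 and 9.65 CPM (-1.29, SE 0.18, adjusted p 7.8e-04), and in KPC4 it was at most 1.63 CPM. Hspa2, Hspa1l, Hspa4l, Hspa13 and Hspa12a were not called in PSC4, with log2 fold changes between -0.64 (Hspa2) and -0.02 (Hspa12a).

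**Figure D2:**
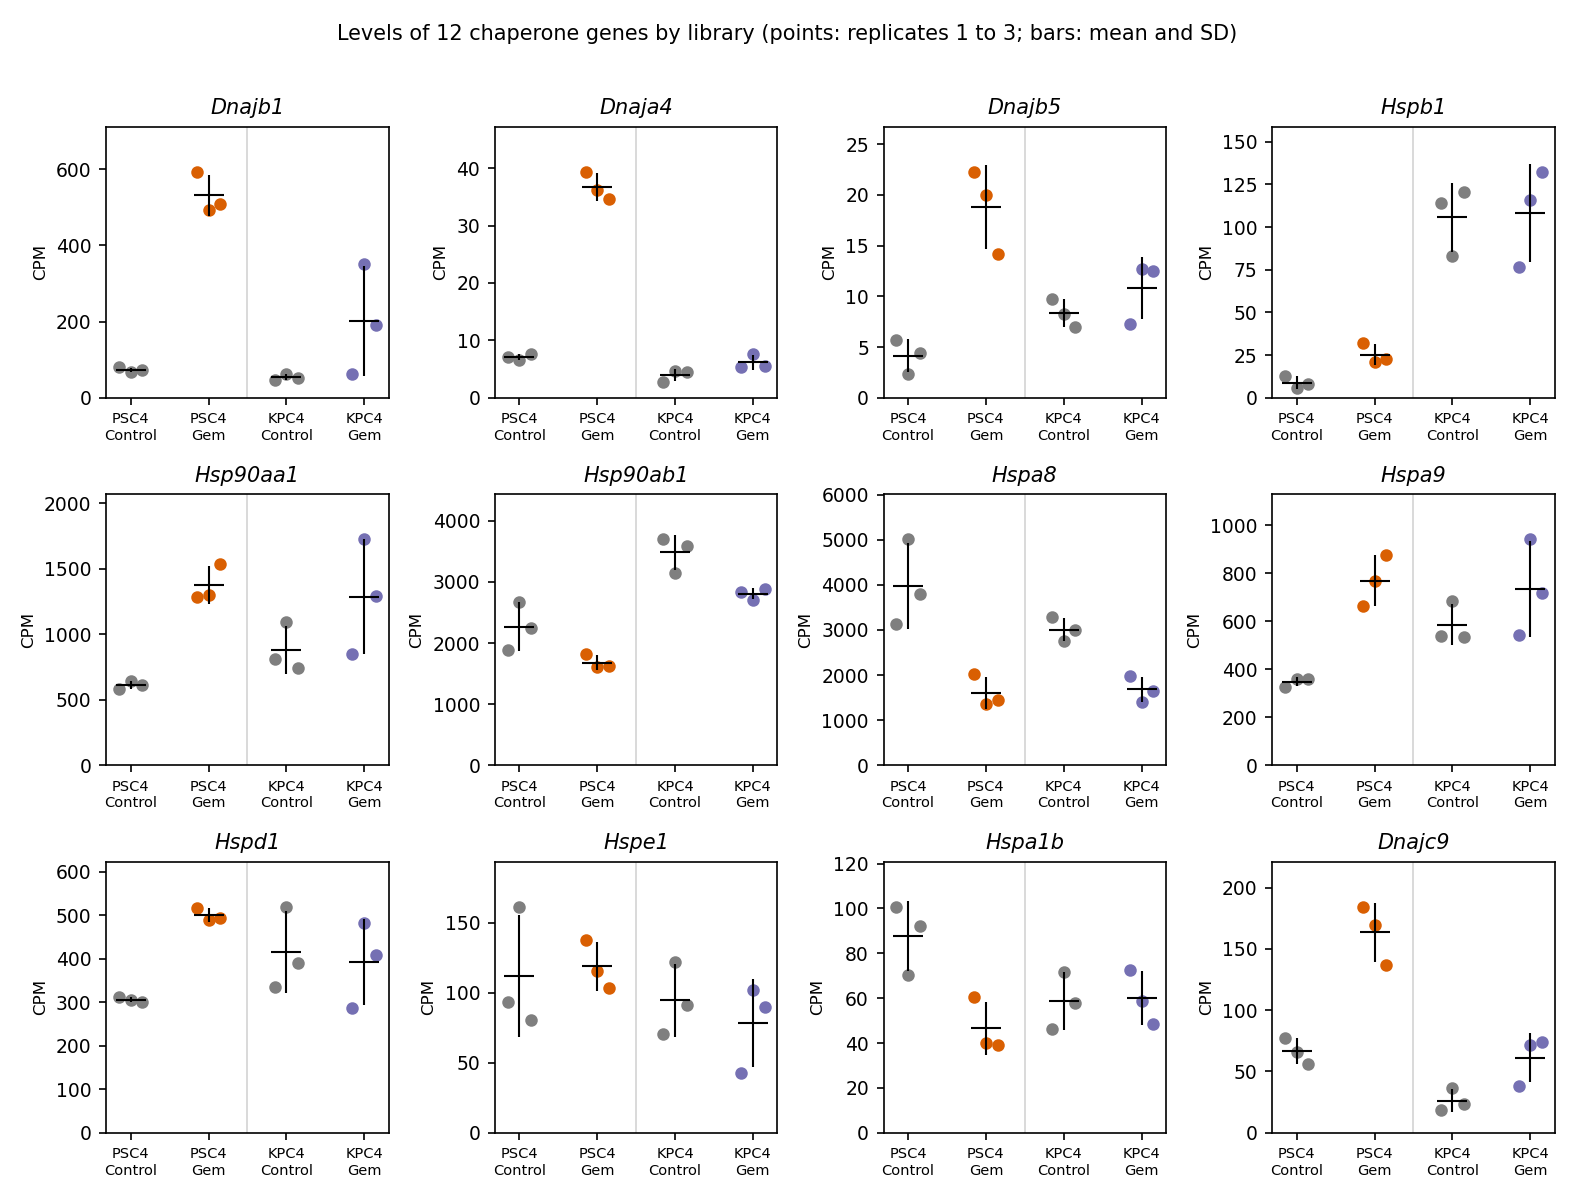
Level of 12 members in CPM (y axis, from 0) in each of the 12 libraries by group, with points for replicates 1 to 3 and bars for the mean and SD. Dnajb1, Dnaja4 and Hspa9 of PSC4 lie above all controls in all 3 Gem-SU libraries, Hspa8 lies below all controls in both lines, and Dnajb1 in Gem-PSC-SU replicate 1 of KPC4 (62.2 CPM) lies among the controls.

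Of the Hsp90 isoforms, edgeR called the inducible gene in PSC4 but not the constitutive gene. Hsp90aa1, the stress-inducible isoform, rose in PSC4 from 584, 645 and 615 CPM with Control-SU to 1289, 1299 and 1541 CPM with Gem-SU, without overlap. The log2 fold change was 1.16 (SE 0.17, adjusted p 9.2e-04), or 2.24-fold. Hsp90ab1, the constitutive isoform, measured 1887, 2677 and 2244 CPM against 1821, 1602 and 1616 CPM, with no overlap. Its log2 fold change was -0.43 (SE 0.20), with an adjusted p of 0.105 in edgeR, 0.037 in DESeq2 and 0.0091 in the authors' deposited table. In KPC4 Hsp90aa1 had a log2 fold change of 0.55 (SE 0.27, adjusted p 0.339) and Hsp90ab1 one of -0.31 (SE 0.15, adjusted p 0.321). Of the 31-base words of Hsp90aa1, 51.4% recur in other genes, above all Gm12346, which had at most 64 counts in PSC4 and 52 in KPC4. Within each library, the share of Hsp90aa1 in the counts of both genes was 21.5% ± 2.10 with Control-SU and 45.0% ± 3.69 with Gem-SU in PSC4 (SD, n = 3 each; two-sided exact permutation test, p = 0.1, the smallest p that 3 against 3 libraries allow). In KPC4 that share was 20.3% ± 4.75 with Control-PSC-SU and 30.99% ± 7.97 with Gem-PSC-SU (SD, n = 3 each; two-sided exact permutation test, p = 0.2), and the groups overlapped.

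Hspd1 (Hsp60) and Hspe1 (Hsp10) form the mitochondrial folding chamber and its lid, and their starts lie head to head on chromosome 1 with 215 bases between them. The heat shock element between them is shown because its letters lie before both starts. It is found at chr1:55088055-55088080 on GRCm38.p6, from 93 to 68 bases before the Hspe1 start, and is printed on the Hspe1 strand with the heat shock units in capitals.
Hspe1: tccgTTCTAGAACCTTCCGGAAggcc
Hspd1 rose in PSC4 from 312, 304 and 301 CPM to 517, 489 and 494 CPM, with tight and separate groups, a log2 fold change of 0.71 (SE 0.14) and an adjusted p of 0.0039. Hspe1 measured 93.5, 161 and 80.5 CPM with Control-SU and 137, 115 and 103 CPM with Gem-SU, which overlapped, and its log2 fold change was 0.09 (SE 0.26, adjusted p 0.801). In KPC4 neither gene was called, with log2 fold changes of -0.08 for Hspd1 (SE 0.24, adjusted p 0.887) and -0.27 for Hspe1 (SE 0.33, adjusted p 0.696). Parts of both genes recur elsewhere in the genome, at 50.1% of the 31-base words of Hspd1 and 24.8% of those of Hspe1. A pseudogene copy of Hspd1 had at most 23 counts in PSC4.

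CCT is the double ring of the cytosol that folds actin and tubulin. Of its 7 subunit genes tested, Cct6a and Cct3 were called higher in PSC4, and none was called lower. Cct6a rose from 277, 321 and 282 CPM to 463, 489 and 497 CPM (0.72, SE 0.15, adjusted p 0.0046). Cct3 rose from 204, 200 and 186 CPM to 301, 286 and 301 CPM (0.59, SE 0.13, adjusted p 0.0077), but without Control-SU replicate 3 its adjusted p was 0.055. The other subunits, Cct2, Cct4, Cct5, Cct7 and Cct8, had log2 fold changes between -0.19 (Cct2) and 0.30 (Cct8), and none of them was called. In KPC4 the class lay between -0.37 for Cct2 (SE 0.15, adjusted p 0.267) and 0.10 for Cct3 (SE 0.26, adjusted p 0.865). Cct2 was lower there in every Gem-PSC-SU library, at 469, 424 and 441 CPM against 313, 370 and 347 CPM.

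Small heat shock proteins hold unfolded proteins without ATP. Hspb1 (Hsp25 of the mouse) rose in PSC4 from 13.04, 5.90 and 7.80 CPM to 32.2, 20.8 and 22.5 CPM, a log2 fold change of 1.496 (SE 0.31, adjusted p 0.0052), without overlap. In KPC4 it was an abundant transcript at 114, 82.9 and 120 CPM with Control-PSC-SU and 76.5, 116 and 132 CPM with Gem-PSC-SU, and these groups overlapped (0.03, SE 0.24, adjusted p 0.958). Over its 31-base words, 52.3% recur in other genes, above all a pseudogene. Hspb6, an actin-associated member of smooth muscle, fell in PSC4 from 67.8, 72.0 and 55.1 CPM to 36.1, 17.1 and 27.4 CPM (-1.27, SE 0.26, adjusted p 0.0046), without overlap, and in KPC4 lay at 25.7 ± 1.13 and 26.3 ± 2.46 CPM (mean ± SD, n = 3). Hspb7, a muscle member, had at most 23 counts in any PSC4 library, and its call (-2.07, adjusted p 0.019) was lost without Control-SU replicate 1 or 3 or Gem-SU replicate 2 or 3 (adjusted p up to 0.092). Hspb11, an intraflagellar transport protein that carries the family name, had a log2 fold change of -1.11 (adjusted p 0.026) in PSC4, and its call was lost without Gem-SU replicate 2 or 3 (adjusted p up to 0.090). In KPC4 Hspb11 had a change of -0.62 (adjusted p 0.370).

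Summed over all 68 members, chaperone transcripts took the same share of the PSC4 counts in both media, 1.31% ± 0.118 with Control-SU and 1.31% ± 0.0444 with Gem-SU (SD, n = 3 each). Within that sum the shares of the members differed between the media. Hspa8 took 0.392% ± 0.0797 with Control-SU and 0.162% ± 0.0362 with Gem-SU, and the members without Hspa8 took 0.915% ± 0.0386 and 1.15% ± 0.0187 (SD, n = 3 each). The 38 Dnaj genes took 0.241% ± 0.00659 with Control-SU and 0.325% ± 0.0115 with Gem-SU, and the 8 mitochondrial members 0.0879% ± 0.00209 and 0.154% ± 0.00595 (SD, n = 3 each). In each of these 4 shares the PSC4 groups did not overlap. The sums weigh members by their counts, and of the 8 mitochondrial members 3 were called higher and 2 lower. Of the Dnaj genes, 2 Dnaja, 3 Dnajb and 6 Dnajc genes were called higher and 7 Dnajc genes lower. The Dnaj sum includes Dnajb1, with means of 73.4 CPM with Control-SU and 532 CPM with Gem-SU. For each 100 Hspa8 counts, PSC4 had 1.94 ± 0.596 Dnajb1 counts with Control-SU and 33.7 ± 3.76 with Gem-SU (SD, n = 3 each; two-sided exact permutation test, p = 0.1). The KPC4 figures were 1.82 ± 0.447 with Control-PSC-SU and 13.2 ± 11.0 with Gem-PSC-SU (SD, n = 3 each; two-sided exact permutation test, p = 0.1). All 68 members together took 1.52% ± 0.0561 and 1.38% ± 0.0763 of the KPC4 counts, and Hspa8 alone 0.303% ± 0.0273 and 0.168% ± 0.0379, with groups apart in both (SD, n = 3 each). The mitochondrial members took 0.124% ± 0.0218 and 0.132% ± 0.0267 in KPC4 (SD, n = 3 each), which overlapped. In bulk cultures less RNA per cell and fewer cells of a kind cannot be told apart.

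**Figure D3:**
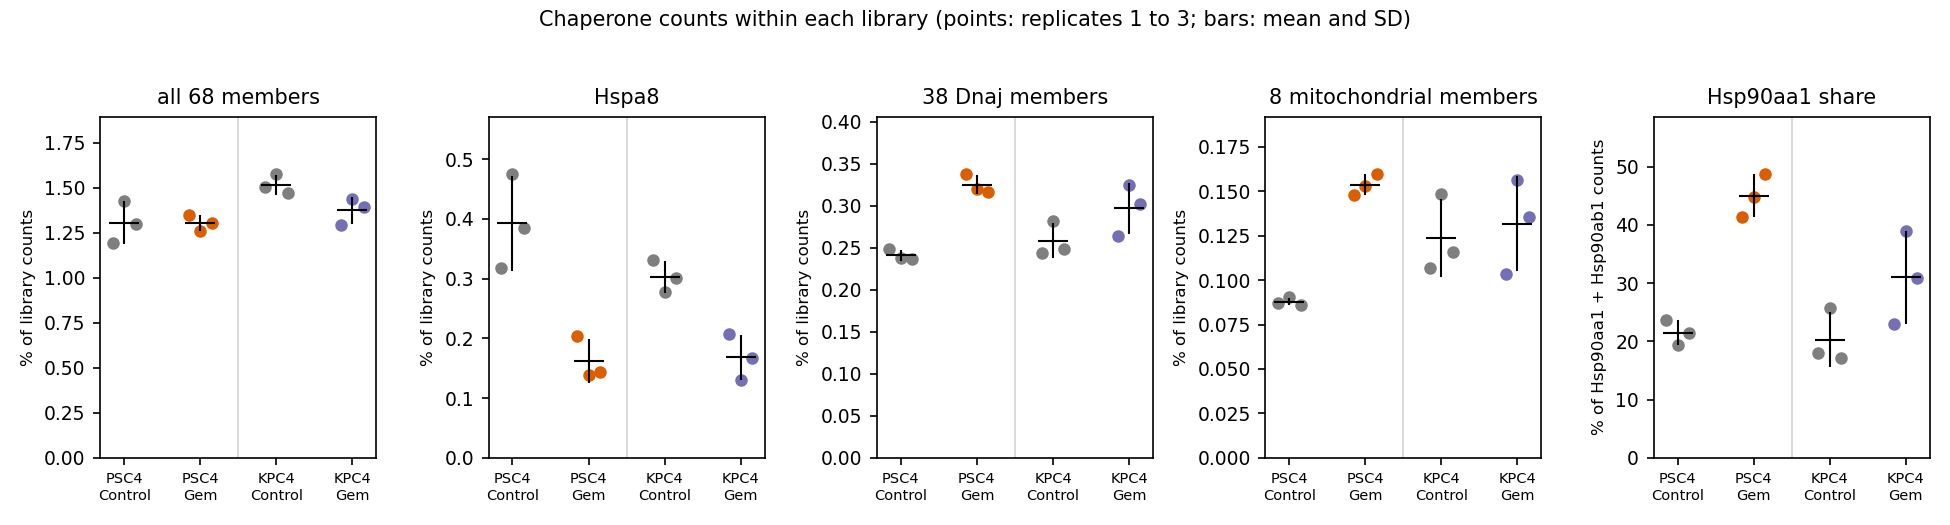
Share of each library's counts (y axes, in percent, from 0) in all 68 members, Hspa8, the 38 Dnaj genes and the 8 mitochondrial members, and the share of Hsp90aa1 in the counts of both Hsp90 genes, with points for replicates 1 to 3 and bars for the mean and SD. In PSC4 the sum of all members stays at 1.31% while the Hspa8 share goes from 0.392% to 0.162% and the Hsp90aa1 share from 21.5% to 45.0%.

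Genes of the same pathway that the rule does not match were counted by direction, to be read against the 46.3% of all genes called in PSC4. A list of heat shock factor genes and Hsbp1 had 4 genes tested in PSC4. Of these, Hsf2 was called higher (0.85, adjusted p 0.018) and Hsf1 missed the threshold (0.41, adjusted p 0.059). The call of Hsf2 was lost without Control-SU replicate 1 or 3 or Gem-SU replicate 2 or 3 (adjusted p up to 0.076). With the replicate block all 4 were called, 3 higher and 1 lower, beside 54.4% of all genes. Of 9 Hsp70 co-chaperones, Bag4 was called higher (1.07, adjusted p 8.7e-04) and Bag5 (-0.98, adjusted p 0.0077) and St13 (-0.49, adjusted p 0.021) lower. Of 14 Hsp90 co-chaperones, 6 were called higher and 1 lower. The higher ones included Ppp5c, a phosphatase bound to Hsp90 (0.99, adjusted p 0.0014), and Chordc1 (0.86, adjusted p 0.0099), and the lower one was Sugt1 (-0.93, adjusted p 0.0033). Of Tcp1 and 7 prefoldin-related genes, which serve CCT, Pfdn5 was called lower (-1.45, adjusted p 0.0068) and none higher, and Tcp1, the first subunit of the ring, had a change of 0.20 (adjusted p 0.316). Of 9 mitochondrial folding and protease genes, 4 were called higher, among them Lonp1, the matrix protease (0.97, adjusted p 8.6e-04), and 1 lower, Hscb (-1.49, adjusted p 0.0041). The genes left out by name were called higher as well, Hspa5 by 0.84 (adjusted p 0.0091) and Dnajb9 by 0.90 (adjusted p 0.015, or 0.068 without Control-SU replicate 3). In KPC4 none of these genes was called by the main fit. With the replicate block Fkbp4 was lower (-0.57, adjusted p 0.029) and Hspa5 higher (1.19, adjusted p 0.031), both values of change being those without the block. DESeq2 called Hspa5 and Dnajb9 higher in KPC4 (smallest adjusted p 0.018) and no other gene of these lists, beside 5.37% of all 15309 genes with counts. In the main fit the KPC4 changes of Hspa5 and Dnajb9 were 1.19 and 1.28.

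The KPC4 changes were set beside those of PSC4 member by member, since the comparisons share no library. Of 63 members tested in both lines, 45 (71.4%) had the same sign in both, against 69.5% of 12207 genes. Pearson's r across these members was 0.690 and Spearman's rho 0.657, against 0.493 and 0.502 over all genes. Members of 1 library share its depth and state and are not independent, so no p is given. The change was larger in size in PSC4 for 46 of the 63 (73.0%), against 71.8% of all genes. Of 31 members called in PSC4 and tested in KPC4, 26 (83.9%) had the same sign there and 29 (93.5%) a smaller change, against 79.3% and 90.9% of the 5669 genes called in PSC4. These shares lay near those of all genes, and the called members were chosen by their change in PSC4, so nothing particular to the chaperones is read from them.

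**Figure D4:**
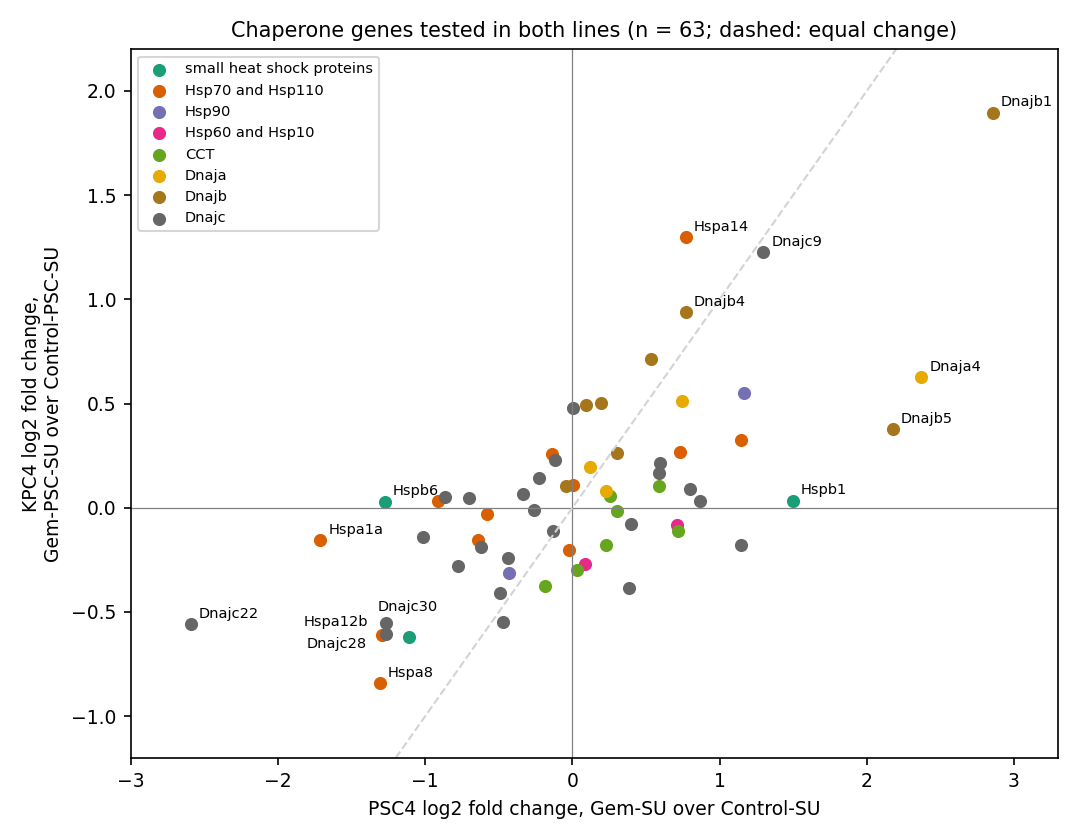
Log2 fold change of the 63 members tested in both lines, PSC4 on the x axis and KPC4 on the y axis, coloured by class, with a dashed line of equal change. Most members lie nearer the horizontal axis than the dashed line, Dnajb1 (2.86 and 1.90), Hspa14 and Dnajc9 are high in both, Hspa8 is low in both, and Hspb1 and Hspb6 lie on the horizontal axis.

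Whether the responses differed between the lines was tested as an interaction in 1 fit of all 12 libraries. It called 4 of 65 members, 3 with a higher response in PSC4 and 1 with a lower one, against 9.85% of 13632 genes, 4.75% higher and 5.1% lower. Dnaja4 responded more in PSC4 by 1.70 on the log2 scale (SE 0.33, adjusted p 0.0074), Dnajb5 by 1.75 (SE 0.46, adjusted p 0.031) and Hspb1 by 1.41 (SE 0.42, adjusted p 0.048), and the response of Hspb6 in PSC4 was lower, at -1.36 (SE 0.33, adjusted p 0.022). Dnaja4 was called when any 1 library was left out. The call of Hspb6 was lost without Control-PSC-SU replicate 3 or Control-SU replicate 2, that of Dnajb5 without any of 8 libraries and that of Hspb1 without any of 10 libraries (adjusted p up to 0.108). The calls of Dnajb5 remained without Control-PSC-SU replicate 3, Control-SU replicate 1, Gem-PSC-SU replicate 2 or Gem-SU replicate 3, and those of Hspb1 without Control-PSC-SU replicate 2 or Control-SU replicate 1. The count of members ran from 2 to 9, with 9 without Gem-PSC-SU replicate 2 and 2 without any of 7 libraries. Blocked on the replicate number, the interaction called 13 members (20.0% of those tested), the 4 named among them, beside 21.9% of all genes. The difference between lines for Hspa8 had an adjusted p of 0.315, and that for Dnajb1 one of 0.331. In simulated data with 200 changed genes, fewer than were called here, the interaction test recovered 9.8% of 2-fold differences. A missed call therefore does not show equal responses. Among the settings run, Dnajb1 passed only without Gem-PSC-SU replicate 2 (adjusted p 0.039).

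Control cells of the lines were compared in the same fit. The members called were 26 of 65, 14 higher in PSC4 and 12 higher in KPC4, against 42.9% of all genes (22.3% higher and 20.6% lower), and 40 with the replicate block, beside 52.1% of all genes. Without 1 library in turn the count of members ran from 20 to 31. Hspa12a, a divergent Hsp70, measured 6.50, 8.41 and 8.55 CPM in PSC4 and 0.176, 0 and 0 CPM in KPC4 on the scale of all 12 libraries (6.91, SE 0.92, adjusted p 3.4e-05). Hspa12b (5.33, SE 0.66) and Dnajc27 (1.82, SE 0.28) were also higher in PSC4. Higher in KPC4 were Dnajc22 (-5.77, SE 0.56), Hspb1 (-3.57, SE 0.32) and, with smaller differences, Hsp90ab1 (-0.63, SE 0.17, adjusted p 0.0077) and Hspa9 (-0.76, SE 0.20, adjusted p 0.0072). Per kilobase of exon, Hspa8 ranked first of the members in control PSC4 cells, at 935 CPM per kilobase, before Hsp90ab1 at 764 and Hsp90aa1 at 158. In control KPC4 cells Hsp90ab1 came first at 1180 CPM per kilobase, before Hspa8 at 711 and Hsp90aa1 at 228. The line difference of Hspa8 itself missed the threshold.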

How the data were processed

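RNA-seq of 12 libraries was analysed, 3 in each of 4 groups. The deposited count tables hold raw read counts per gene, 1 table for each line. Per the submitters' processing notes, FastQC, Trim Galore 0.6.10, cutadapt 5.2, Salmon, DESeq2, R 4.5.1 and the GRCm39 build were used, with no role or order given. The deposited comparison tables give the authors' log2 fold changes and their p-values with adjusted p-values. Symbols were matched through GENCODE M21 (99.7% of the identifiers of each table). No row of KPC4 counts sums to less than 11, while rows of PSC4 counts sum to as little as 0, so the gene lists differ at low counts.

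Each line was fitted apart with edgeR 4.0.16 in R 4.3.3 (robust quasi-likelihood test, TMM scaling, the low-count filter of edgeR, Benjamini-Hochberg adjustment, threshold 0.05). The interaction and the control comparison came from 1 fit of all 12 libraries. Alternatives were DESeq2 1.42.0, its size factors, no low-count filter, robust estimation off, the replicate number as a block, and leaving out each library in turn. In KPC4, libraries with the same number deviated from their groups alike, with correlations over genes of 0.351, 0.436 and 0.211, all over 0.1. They were treated as pairs only in the fits with the replicate block, and the main fit did not use the pairing. No 2 replicates agreed within sampling noise (smallest chi-square per degree of freedom 30.4). Each simulation changed 200 genes, against 6177 genes called in PSC4 and 1343 by the interaction, so the rates in the real data can differ. In data simulated for PSC4 the fit recovered 50.0% of 2-fold and 95.4% of 4-fold changes, and for KPC4 28.0% and 90.4%. For the interaction it recovered 9.8% and 69.6%. The share of false calls was 6.68% for PSC4, 7.21% for KPC4 and 5.48% for the interaction. Members and lists were chosen with earlier results of these data known. Named with values are the members marking the set, those with the smallest p or the largest change in a class or contrast (changes only with a mean of at least 50 counts), and the leading genes of each companion list. Other members named were chosen after their values were seen.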

Additional observations from a re-analysis of the deposited data

Results flagged for a closer look

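In 4 members the response to the medium differed between the lines by the interaction test in edgeR, which had 3 libraries in each of 4 groups. They are 4 of 65 members (6.15%), against 9.85% of all genes. The response of PSC4 minus that of KPC4 was 1.70 on the log2 scale for Dnaja4 (adjusted p 0.0074), 1.75 for Dnajb5 (adjusted p 0.031), 1.41 for Hspb1 (adjusted p 0.048) and -1.36 for Hspb6 (adjusted p 0.022). Dnaja4 and Dnajb5 were higher in 3 of 3 Gem-SU libraries of PSC4, as was Hspb1, and Hspb6 was lower in 3 of 3. The same values entered the interaction test, and 56.4% of all genes were apart in PSC4, so no further support is drawn from this. In KPC4 the values of Dnajb5, Hspb1 and Hspb6 overlapped between the media. Those of Dnaja4 were apart and higher with Gem-PSC-SU there as well, and 22.8% of all genes were apart in KPC4. The call of Hspb1 was lost without any of 10 of the 12 libraries and that of Dnajb5 without any of 8.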

How the results depend on the processing

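In PSC4, 23 of the 32 members called, 16 higher and 7 lower, were called under all 11 alternatives, and 9 lost the call under at least 1. The count of members called was 37 in DESeq2 and ran from 25 to 36 when each library was left out, and that of all genes from 4061 (without Gem-SU replicate 2) to 6826. In KPC4, members called were 5 in DESeq2, 4 with the replicate block and 0 to 6 without 1 library, against 0, and all genes called were 822, 1171 and 0 to 1129. For the interaction, members called were 10 in DESeq2, 13 with the replicate block and 2 to 9 without 1 library, and all genes called were 2145, 2988 and 610 to 1993. The control comparison of the lines called 40 members with the replicate block and 20 to 31 without 1 library, and all genes called were 7096 and 4954 to 6272. The cause of these shifts was not tested. In PSC4 the same-numbered libraries correlated by 0.428, -0.0548 and 0.102, not all over 0.1, so whether a number marks a pair there stays undecided. The replicate block there called 37 members and 7266 genes.

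The sign turned under at least 1 alternative for 8 of 65 members in PSC4 and 27 of 63 in KPC4, none of them called in any setting of that line. Without 1 library in turn, in KPC4, Hspb1 ran from -0.14 to 0.23 (also -0.10 and -0.018), Hspb6 from -0.020 to 0.10 (also -0.0032), Hspd1 from -0.26 to 0.12 (also 0.099) and Hspe1 from -0.51 to 0.021. Of the other values of single genes under alternatives, 820 kept their direction and side of the threshold, 40 passed it and 29 no longer did. Hspb7 had at most 23 counts in PSC4, which limits the precision of its level.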

Other observations

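A few genes that fit the same family names were counted in 1 table alone and entered no comparison between lines. Hspb8, a small heat shock protein that works with Bag3, had 1474, 1411 and 1701 counts in the PSC4 Control-SU libraries and 2793, 2341 and 2031 counts in the Gem-SU libraries, before scaling to library size. Hspb2 had 36, 6 and 24 counts with Control-SU and 4, 7 and 15 with Gem-SU. In KPC4, Dnajb13 had 7, 3 and 7 counts with Control-PSC-SU and 16, 5 and 3 with Gem-PSC-SU. Cct3-ps1 in PSC4 had at most 10 counts and Cct8l1 in KPC4 at most 5.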
